A study of Mus musculus with 2 samples.

Results

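The cells described here are 174 early-anagen melanocyte stem cells (McSCs) that carried many transcripts of the *Mcm* helicase genes and few of *Top2a*, and they are called Mcm-high cells. They made up 6.25% of the 2785 barcodes of their library that passed the filters and 1.58% of the 11010 barcodes of that library. The study's 2 libraries held 15337 barcodes together, and the rule was applied to the early-anagen library alone. Barcodes had to hold more than 10000 unique molecular identifiers (UMIs, each of which marks 1 captured transcript), under 5% mitochondrial UMIs, at least 1 UMI of *Dct*, a melanocyte enzyme gene, and fewer than 3 UMIs of *Krt10* and *Krt14* together, keratin genes of the epidermis. These barcodes were ordered by the share of their UMIs in *Mcm2*, *Mcm3*, *Mcm4*, *Mcm5*, *Mcm6*, *Gins2*, *Ung*, *E2f1* and *Hells*, and the top 15% was kept. Of those 418 cells, 244 (58.4%) held 5 or more *Top2a* UMIs and were set aside as Top2a-high cells. The 1393 cells in the lower 50% of the order served as the comparison and are called Mcm-low cells, and the 974 cells between are called intermediate cells.

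The study followed pigment cells of mouse hair follicles through the hair cycle. GFP+ cells were sorted from mouse skin, and both libraries came from mice that carried the transgenes *Dct-rtTA* and *tetO-H2B-GFP*, in which the *Dct* promoter drives a doxycycline-dependent activator of a histone-GFP fusion, so that the label depends on use of this promoter. Hair was removed at 8 weeks of age and doxycycline chow was given for 4 days, and skin was taken 4 days after depilation, in anagen II, from 4 pooled mice. The other library held differentiated melanocytes of the hair bulb in anagen VI, from 4 pooled mice at 5 weeks. The early-anagen library was made with version 3 of the droplet chemistry and the bulb library with version 2. Each condition was 1 library, so no test between conditions or classes was possible. All intervals given here are exact 95% intervals that cover counting error only, and cells of 1 library are not replicates.

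McSCs rest in the hair germ during telogen, and at anagen onset they enter the cell cycle and give rise to the melanocytes that pigment the new hair. Before DNA can be copied, the origin recognition complex, CDC6 and CDT1 load the MCM helicase onto origins in G1, and CDC45 and the GINS complex turn it into a moving replicative helicase when origins fire. E2F transcription factors switch on many of the genes for these steps at the passage from G1 to S. Histone gene transcripts accumulate during S, and *Top2a* and mitotic genes reach their highest levels later, in G2 and mitosis.

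The 9 genes were the basis of selection, so their values are a description. The limit of the top 15% lay at a share of 0.1092% of UMIs. The lowest cells inside it had shares of 0.1093% and 0.10933%, and the nearest cells outside had 0.10909% and 0.10889%. The selected cells are a range of a continuous score and not a separate type, as 137 cells lay within 10% of the limit, and 28 of the 174 lay within 10% above it. The *Top2a* limit also ran through a continuum, with 49 Mcm-high cells at 3 or 4 UMIs and 48 Top2a-high cells at 5 or 6 UMIs. The median share was 0.138% in Mcm-high cells, from 0.1093% to 0.2488%, and 0.00435% in Mcm-low cells, so that a median cell held 43 UMIs of these genes against 1.

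**Figure D1:**
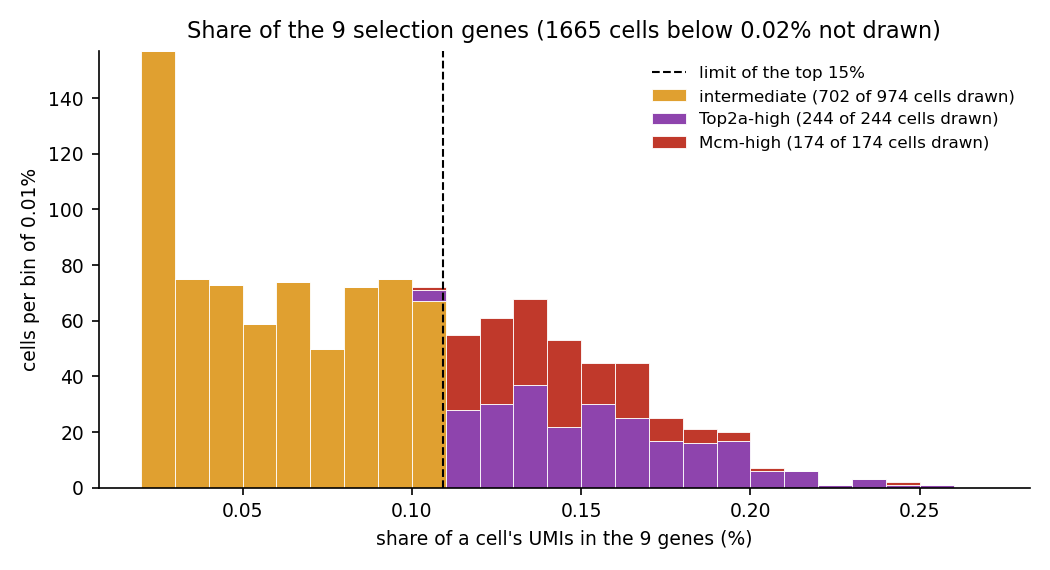
Number of early-anagen cells (vertical axis) by the share of their UMIs in the 9 selection genes (horizontal axis, percent), stacked by class, with the limit of the top 15% as a dashed line. Mcm-high and Top2a-high cells lie above the limit of 0.1092% by construction, no gap separates them from the intermediate cells, and 1665 cells below 0.02% are not drawn.

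Levels were read after each cell was thinned to 10000 UMIs and the UMIs of a class were summed, and are given as CPM, the UMIs of a gene per 1000000 UMIs of the class. *Mcm3*, a helicase subunit gene, stood at 290.2 CPM in Mcm-high cells against 6.03 CPM in Mcm-low cells. At this depth *Mcm3* was found in 94.3% of Mcm-high cells and 5.81% of Mcm-low cells. *E2f1*, the transcription factor gene, stood at 110.9 against 0.933 CPM, and *Hells*, a chromatin remodeller gene, at 188.5 against 2.58 CPM. *Ung*, a base excision repair enzyme gene, stood at 60.3 against 3.59 CPM. The log2 ratios of the 9 genes ran from 4.07 to 6.89 with a median of 4.84. When cells were selected on the other 8 genes and the gene left out was read, the median was 4.15, from 3.34 for *Ung* to 6.06 for *E2f1*. When cells were selected on a random 50% of the UMIs and the 9 genes were read in the remaining UMIs, the median was 3.97, and 143 of the 208 cells so selected (68.8%) were Mcm-high cells.

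E2F words in the promoters of genes that stood high in these cells are shown because E2F1 itself was among the selection genes. RefSeq promoters (GRCm38.p6) were read over 300 bases, from 250 before to 50 after each start, for the words TTTCCCGC, TTTCGCGC, TTTGCCGC and TTTGGCGC on either strand. These words can overlap one another on opposite strands. Of the 9 selection genes and the 15 genes with the largest increases, 20 were in the promoter table and 10 held a word. The stretches upstream of the start are written 5′ to 3′ on the strand of the gene, with the words in capitals. *Mcm5* (chr8:75109340-75109383, plus strand), *Mcm6* (chr1:128359729-128359831, minus strand) and *Hells* (chr19:38930912-38930951, plus strand) were selection genes. *Uhrf1* (chr17:56304112-56304151, plus strand), *Mcm7* (chr5:138172025-138172064, minus strand), *Syce2* (chr8:84872208-84872247, plus strand), *Zfp367* (chr13:64153200-64153234 and chr13:64152440-64152479 before 2 separate starts, minus strand) and *Topbp1* (chr9:103305182-103305221, plus strand) were not.
Mcm5: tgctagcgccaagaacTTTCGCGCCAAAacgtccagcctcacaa
Mcm6: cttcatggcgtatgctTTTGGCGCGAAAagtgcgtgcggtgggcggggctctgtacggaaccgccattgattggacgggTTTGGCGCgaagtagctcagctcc
Hells: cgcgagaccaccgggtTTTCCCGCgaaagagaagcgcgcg
Uhrf1: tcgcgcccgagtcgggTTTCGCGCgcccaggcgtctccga
Mcm7: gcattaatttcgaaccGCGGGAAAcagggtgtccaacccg
Syce2: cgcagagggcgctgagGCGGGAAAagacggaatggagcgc
Zfp367 (chr13:64153200-64153234): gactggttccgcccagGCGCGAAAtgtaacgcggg
Zfp367 (chr13:64152440-64152479): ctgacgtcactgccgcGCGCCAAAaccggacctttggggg
Topbp1: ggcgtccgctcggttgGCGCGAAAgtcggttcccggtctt

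One of the 4 words was present in a promoter window of 57 of the 237 genes matched (24.1%) among those at least 2-fold higher in Mcm-high than in Mcm-low cells, the selection genes left out. The share was 3.62% (5 of 138) among genes at least 2-fold lower, 5.4% (323 of 5982) among all genes compared and 2.6% (704 of 27025) among all genes of the promoter table. Another word, the CHR word TTTGAA, known from promoters of G2/M genes, was searched on both strands in the same windows. It was present in a window of 14.8% of the higher genes and 21% of the genes at least 2-fold lower than in Mcm-low cells. The share was 13.4% among all genes compared and 20.2% among all genes of the promoter table. Among genes at least 2-fold lower in Mcm-high than in Top2a-high cells, 43.7% (52 of 119) held the CHR word and 9.24% (11 of 119) an E2F word. A match describes these letters and is not a measured binding site.

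Among 7418 genes compared, those with a mean of at least 10 CPM over both classes, 305 (4.11%) were at least 2-fold higher in Mcm-high cells than in Mcm-low cells and 166 (2.24%) at least 2-fold lower, with a median log2 ratio of -0.04. Ratios lay above 0 in 3452 of the 7418 genes, 1611 with intervals above 0, and below 0 in 3966, 1563 with intervals below 0. Of the genes compared, 272 reached that mean only through Mcm-high cells and 281 only through Mcm-low cells, and such genes had to differ. The cells differed in depth before thinning, with a median of 31100 UMIs in Mcm-high cells, 20330 in Mcm-low and 39080 in Top2a-high cells. On UMIs per cell without scaling, the median log2 ratio of all genes was 0.41 and the split was 790 higher and 35 lower, so ratios on that scale are read relative to 0.41. Whether RNA content or capture set this depth was not tested. Mcm-high cells held a median of 3004 genes at 10000 UMIs against 2942, and 2.82% mitochondrial UMIs against 3.26%.

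Regulators of the passage from G1 to S were higher in part. *Ccne1* (chr7:38097984-38107534, mm10), which encodes cyclin E1, the activator of CDK2, stood at 28.2 CPM in Mcm-high cells and 3.45 CPM in Mcm-low cells, a log2 ratio of 3.03 (2.43 to 3.64). *Ccne2*, the other cyclin E gene, stood at 16.7 against 0.431 CPM but did not reach the mean of 10 CPM. *Rbl1*, a pocket protein gene, stood at 31.6 against 3.73 CPM, and *Tfdp1*, whose product pairs with E2F factors, at 99.4 against 24.8 CPM. Of the 16 regulators listed, 10 reached the mean, 4 of them only through Mcm-high cells. At least 2-fold higher were 5 and lower 0, beside 4.11% and 2.24% of all genes compared. *Cdk2* itself stood at 263.8 against 385.4 CPM, a log2 ratio of -0.55 (-0.69 to -0.41) on the CPM scale. The summed level of the 16 genes was 653 CPM in Mcm-high, 578 in Mcm-low and 984 in Top2a-high cells.

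Of the G1 cyclins and CDK inhibitors, *Ccnd1*, which encodes cyclin D1, was the gene at least 2-fold higher among 9 of 12 that reached the mean. It stood at 120.1 against 32.0 CPM, a log2 ratio of 1.91 (1.66 to 2.15), and was found in 59.2% of Mcm-high and 20.9% of Mcm-low cells at 10000 UMIs. The share was 51.2% in Top2a-high and 35.6% in intermediate cells. Keratin-rich barcodes, whose cells also use the gene, had a share of 42%. *Ccnd2*, another cyclin D gene, stood at 186.8 against 142 CPM. *Cdkn1b*, which encodes the CDK inhibitor p27, stood at 71.3 against 111.8 CPM, a log2 ratio of -0.65 (-0.93 to -0.39), and *Cdkn1a*, which encodes p21, at 35.1 against 44.6 CPM with an interval that included 0 (-0.75 to 0.03).

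Origin licensing genes had log2 ratios above 0 in all 9 that reached the mean, beside 3452 of all 7418 genes. *Cdc6*, which loads the helicase, stood at 25.9 CPM in Mcm-high cells and 0.359 CPM in Mcm-low cells. Its partner *Cdt1* stood at 58.1 against 12.9 CPM, and *Gmnn*, which encodes the CDT1 inhibitor geminin, at 115.5 against 8.0 CPM, a log2 ratio of 3.86 (3.52 to 4.21). *Mcm7*, the helicase subunit gene that was not used in the selection, stood at 139.1 against 15.9 CPM, a log2 ratio of 3.13 (2.86 to 3.40). Of the 12 licensing genes, 9 reached the mean, 2 of them only through Mcm-high cells, and 6 were at least 2-fold higher and 0 lower. The 12 genes summed to 656 CPM in Mcm-high, 185 in Mcm-low and 875 in Top2a-high cells. Subunits of the origin recognition complex differed among themselves, with *Orc6* at 116.1 against 27.9 CPM and *Orc4* at 28.7 against 26.6 CPM, an interval that included 0 (-0.35 to 0.54).

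Origin firing genes followed the same direction. *Cdc45*, the helicase activator, stood at 30.5 against 1.29 CPM, a log2 ratio of 4.56 (3.76 to 5.42), and *Topbp1*, a scaffold of origin firing and of checkpoint signalling, at 112.1 against 14 CPM. Of 12 genes, 7 reached the mean, 4 of them only through Mcm-high cells. At least 2-fold higher were 6 and lower 0, beside 4.11% and 2.24% of all genes compared. The 12 firing genes summed to 303 CPM in Mcm-high, 71.3 in Mcm-low and 420 in Top2a-high cells.

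Replication fork genes were at least 2-fold higher in 27 of the 30 that reached the mean, and 29 had intervals above 0, beside 1611 of all 7418 genes. *Lig1* (chr7:13277283-13311433, mm10), the ligase gene that joins Okazaki fragments, had the largest ratio among genes outside the selection with a mean of at least 25 CPM, at 173.6 against 10.5 CPM, a log2 ratio of 4.05 (3.76 to 4.35). It was found in 82.2% of Mcm-high and 9.48% of Mcm-low cells at 10000 UMIs. *Prim1*, a primase subunit gene, stood at 78.2 against 9.26 CPM, and *Rpa2*, which encodes a subunit of the single-strand binding protein RPA, at 123.0 against 17.5 CPM. *Pcna*, the sliding clamp gene, stood at 396.6 against 81.5 CPM, a log2 ratio of 2.28 (2.14 to 2.42). *Clspn* and *Timeless*, genes of the fork protection and checkpoint machinery, had log2 ratios of 4.66 and 4.51. Of 32 fork genes, 30 reached the mean, 10 of them only through Mcm-high cells, and 0 were at least 2-fold lower. *Top1*, a topoisomerase gene, was the 1 of the 30 below 0 on the CPM scale, at 177.6 against 205.5 CPM, while its log2 ratio on unscaled UMIs per cell was 0.16. Over licensing, firing and fork genes together, 39 of the 46 that reached the mean were at least 2-fold higher, 16 of the 46 having reached it only through Mcm-high cells, and the sum of all 56 was 3692 CPM in Mcm-high, 2266 in intermediate, 1097 in Mcm-low and 4926 in Top2a-high cells.

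**Figure D2:**
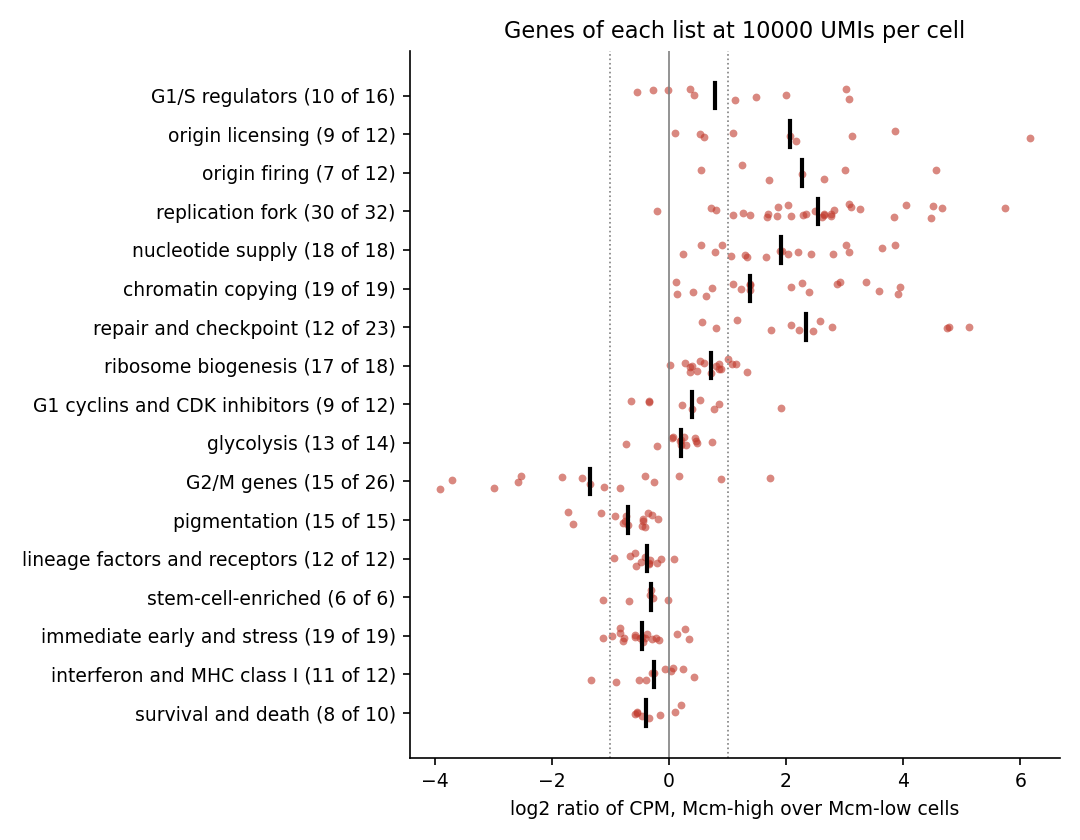
Log2 ratio of CPM in Mcm-high over Mcm-low cells (horizontal axis) for the genes of each list (vertical axis, with the number of genes that reached a mean of 10 CPM of the number listed). Points are genes, black bars are medians and dotted lines mark 2-fold, and the replication, nucleotide and repair lists lie mostly right of the 2-fold line, with pigmentation left of 0.

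Genes of nucleotide supply had log2 ratios above 0 in 18 of the 18 listed, 17 with intervals above 0, beside 3452 and 1611 of all 7418 genes. Of the 18, 14 were at least 2-fold higher, and 5 reached the mean only through Mcm-high cells. *Dut*, which removes dUTP, stood at 393.1 against 56.5 CPM, and *Tyms*, the thymidylate synthase gene, at 122.4 against 26.6 CPM. *Rrm2*, the regulated subunit of ribonucleotide reductase, stood at 87.4 against 7.04 CPM, a log2 ratio of 3.63 (3.26 to 4.02), and at 306.6 CPM in Top2a-high cells. The list as a whole was also highest there, with a sum of 2741 CPM in Top2a-high, 1733 in Mcm-high and 556 in Mcm-low cells. *Tk1*, the thymidine kinase gene, stood at 47.7 against 5.89 CPM. *Samhd1*, which degrades dNTPs, stood at 29.9 against 25.4 CPM with an interval that included 0 (-0.22 to 0.66).

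Genes that copy chromatin and its marks had log2 ratios above 0 in 19 of 19, 17 with intervals above 0, beside 3452 and 1611 of all 7418 genes. Of the 19, 14 were at least 2-fold higher, and 6 reached the mean only through Mcm-high cells. Their sum was 2168 CPM in Mcm-high, 879 in Mcm-low and 3289 in Top2a-high cells. *Chaf1b*, a subunit of the histone chaperone CAF-1, stood at 76.4 against 4.95 CPM, and *Uhrf1*, which directs maintenance DNA methylation, at 71.3 against 4.74 CPM. *Dnmt1*, the maintenance methyltransferase gene, stood at 170.1 against 35.4 CPM, a log2 ratio of 2.27 (2.05 to 2.48). *Slbp*, whose product binds the stem-loop of histone mRNA, stood at 125.3 against 48.2 CPM. The chaperone paralogs differed, with *Asf1b* at 48.9 against 6.68 CPM and *Asf1a* at 46.0 against 42.2 CPM.

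Of 23 repair and checkpoint genes, 12 reached the mean, 8 of them only through Mcm-high cells. At least 2-fold higher were 10 and lower 0, beside 4.11% and 2.24% of all genes compared. The 23 genes summed to 614 CPM in Mcm-high, 152 in Mcm-low and 972 in Top2a-high cells. *Chek1*, the checkpoint kinase gene, stood at 32.8 against 0.933 CPM. *Brca1* stood at 20.1 against 13.6 CPM, a log2 ratio of 0.56 whose interval reached just below 0. Recombination genes best known from meiosis were among the 15 largest increases, with *Psmc3ip*, a recombinase cofactor gene, at 54.0 against 5.82 CPM and *Syce2*, a synaptonemal complex gene, at 47.1 against 5.67 CPM.

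**Figure D3:**
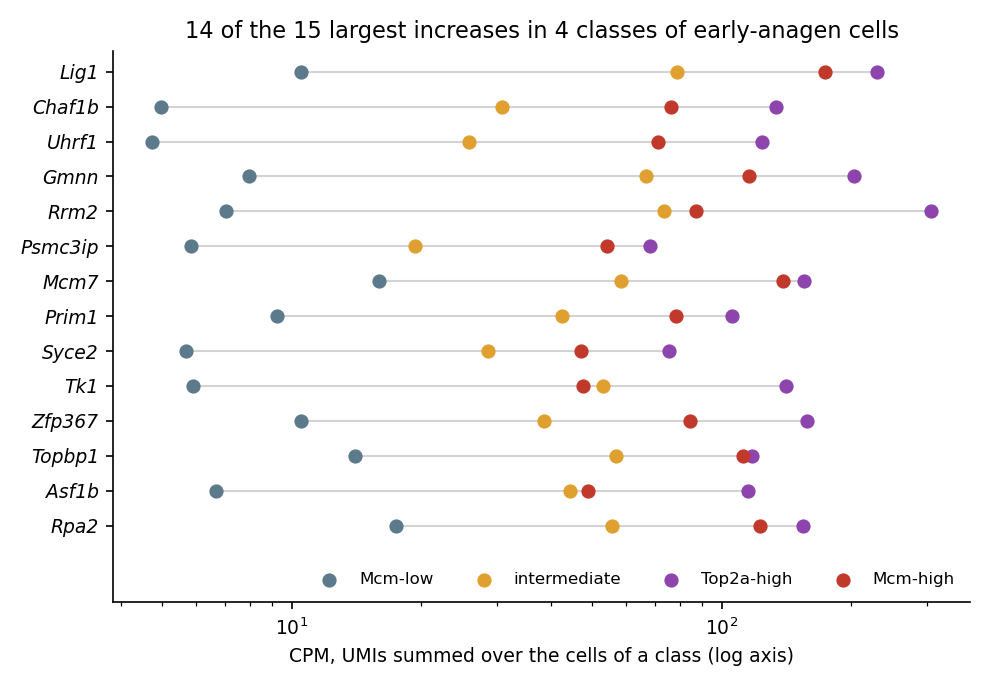
CPM on a log axis (horizontal axis) of 14 of the 15 genes with the largest increases (vertical axis) in 4 classes of early-anagen cells, each point being UMIs summed over a class. Mcm-low points lie farthest left and Top2a-high points farthest right for all 14 genes drawn, with *Lig1* at 10.5 CPM in Mcm-low and 173.6 CPM in Mcm-high cells.

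The label of these cells, early S, was set beside transcripts of replication-dependent histones. No histone gene was part of the rule, but its *Top2a* limit set aside histone-rich cells, so the low level is a description that the rule largely fixed: without that limit the median log2 ratio of the histone genes that reached the mean over Mcm-low cells was 3.29, against -0.62 with it. The -0.62 rested on 6 of the 67 histone genes, 2 of which reached the mean only through Mcm-low cells. With the limit, the median was -1.72 in cells of at least 20000 UMIs and -1.83 in cells of 20000 to 40000 UMIs in both classes. The genes that reach the mean can differ between these settings. In Mcm-high cells the 67 histone genes summed to 145.4 CPM, against 192.2 CPM in Mcm-low cells, 1751 CPM in intermediate cells and 3123 CPM in Top2a-high cells, and 36 of the 67 were at 0. In the 1052 Mcm-low cells without a *Mki67* or *Top2a* UMI the sum was 120.9 CPM, so Mcm-high cells were not lower than those. At least 10 histone UMIs were found in 2 of the 174 Mcm-high cells (1.15%, 0.14 to 4.09), 13 of the 1393 Mcm-low cells (0.933%), 234 of the 974 intermediate cells (24.0%) and 108 of the 244 Top2a-high cells (44.3%, 37.9 to 50.7). *Hist1h2ap*, the most abundant of them, stood at 28.2 CPM against 1400 CPM in Top2a-high cells. These transcripts mostly end in a stem-loop and not in a poly(A) tail, and the capture was on poly(A), so a low level is a limited measure. By the values at hand, cells in late G1 and cells in early S cannot be told apart, and the cells are named here by their rule.

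Within the top 15%, levels were read across the number of *Top2a* UMIs per cell, which the selection used. The 51 cells with 0 *Top2a* UMIs stood at 3273 CPM for the 56 DNA replication genes, 1369 CPM for the 9 selection genes and 111.8 CPM for histones. The 26 cells with 4 UMIs stood at 4215, 1488 and 100 CPM in that order. The 79 cells with 20 or more UMIs stood at 5230, 1466 and 7043 CPM. The sum of the selection genes lay between 1343 and 1571 CPM in every bin, while histones stood low up to 4 *Top2a* UMIs, apart from 478.3 CPM at 3 UMIs, where 1 of 23 cells held at least 10 histone UMIs. *Ccne1* stood at 15.7 CPM at 0 *Top2a* UMIs and 53.9 CPM at 4, and *Rrm2* at 37.3 and 146.2 CPM. The median depth of these bins was 28370 UMIs at 0, 30470 at 4 and 45030 at 20 or more, and its part in these values was not tested.

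**Figure D4:**
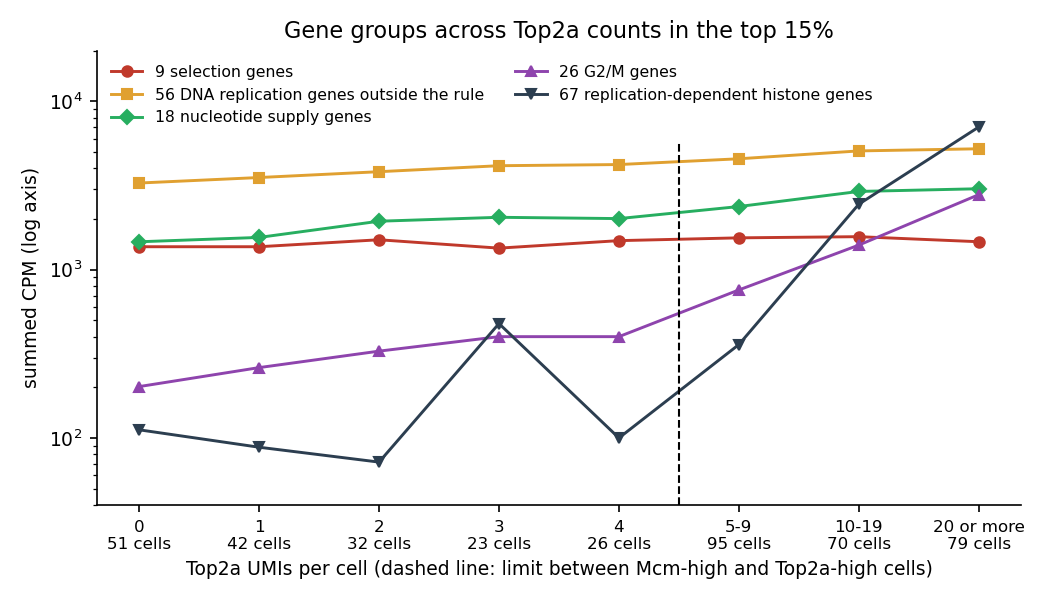
Summed CPM on a log axis (vertical axis) of 5 gene groups in the top 15% of cells, by the number of *Top2a* UMIs per cell (horizontal axis, with the number of cells in each bin). The line of the 9 selection genes lies between 1343 and 1571 CPM throughout, while the G2/M line is higher in each bin right of the dashed line between Mcm-high and Top2a-high cells, and the histone line is highest in the bins of 10 or more *Top2a* UMIs.

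G2/M genes depended on the comparison. Of 26 genes, 15 reached the mean, 8 of them only through Mcm-low cells, so that those 8 had to be lower. At least 2-fold lower in Mcm-high than in Mcm-low cells were 9 and higher 1, beside 2.24% and 4.11% of all genes compared. *Ube2c*, which serves the anaphase-promoting complex, stood at 5.17 against 77.9 CPM, and *Cenpa*, the centromeric histone gene, at 8.62 against 82.9 CPM. *Cdk1*, the mitotic kinase gene, was the gene that stood higher, at 69.5 against 21.0 CPM, a log2 ratio of 1.73 (1.41 to 2.04). Of the Mcm-low cells, 341 (24.5%) carried a *Mki67* or *Top2a* UMI. The summed level of the 26 genes was 295.4 CPM in Mcm-high cells, 570.3 CPM in Mcm-low cells and 50.1 CPM in the 1052 Mcm-low cells without such a UMI. Over those 1052 cells the median log2 ratio was 2.67, so that the direction turned, and the median per cell was 200 CPM in Mcm-high and 0 CPM in Mcm-low cells.

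Mcm-high cells differed from Top2a-high cells in fewer genes. Of 7426 genes compared there, 31 (0.417%) were at least 2-fold higher in Mcm-high cells and 171 (2.3%) at least 2-fold lower. The lower genes included 18 of 20 histone genes that reached the mean and 21 of 22 G2/M genes, but 16 of those 20 and 14 of those 22 reached it only through Top2a-high cells and so had to be lower. They also included 6 of 15 G1/S regulators, 4 of 18 nucleotide supply genes, 4 of 18 repair and checkpoint genes, 3 of 19 chromatin copying genes, 3 of 32 fork genes, 1 of 9 firing genes, 0 of 10 licensing genes and 0 of the 9 selection genes, of which 4 regulators, 2 repair genes, 1 fork gene and 1 firing gene reached the mean only through Top2a-high cells. *Fbxo5*, whose product EMI1 inhibits the anaphase-promoting complex, stood at 2.30 CPM in Mcm-high and 70.9 CPM in Top2a-high cells, a log2 ratio of -4.95 (-6.84 to -3.56). *Ccna2*, which encodes cyclin A2, stood at 8.62 against 92.2 CPM. These cells were separated by *Top2a*, so the lower G2/M and histone values describe what went with that limit. Among the genes higher in Mcm-high cells, *Alppl2*, an alkaline phosphatase gene, stood at 619 against 229.5 CPM, and *Xbp1*, a transcription factor gene of the unfolded protein response, at 55.8 against 27.5 CPM. *Cxcl9*, a chemokine gene, stood at 212.6 against 55.3 CPM, but 6 cells held 99.9% of its 1041 UMIs in the 174 cells.

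Pigmentation genes stood lower in Mcm-high than in Mcm-low cells. All 15 genes reached the mean, 1 of them (*Slc24a4*, an ion exchanger gene) only through Mcm-low cells, and 3 were at least 2-fold lower and 0 higher. Of the 15 intervals, 14 lay below 0, beside 1563 of all 7418 genes, and the median log2 ratio was -0.71 beside -0.04 for all genes compared. On unscaled UMIs per cell the median was -0.20 beside 0.41. *Pmel*, which forms the melanosome matrix, stood at 3222 against 5404 CPM, a log2 ratio of -0.75. *Tyr* and *Tyrp1*, genes of melanin-making enzymes, stood at 488.5 against 675.6 CPM and at 4884 against 6258 CPM. *Trpm1*, a cation channel gene, stood at 466.1 against 879.7 CPM, and *Gpr143*, a melanosomal receptor gene, at 36.2 against 80.6 CPM. *Mc1r*, the melanocortin receptor gene, had an interval that included 0 (-0.44 to 0.06). The same 15 genes summed to 15880 CPM in Mcm-high, 16480 in intermediate, 13950 in Top2a-high and 21950 in Mcm-low cells. The difference was to the Mcm-low cells, as the median log2 ratio was -0.07 over intermediate and 0.23 over Top2a-high cells. Per cell, the sum had a median of 15100 CPM in Mcm-high and 20400 CPM in Mcm-low cells, with the central 80% of cells from 8020 to 25870 CPM and from 9520 to 36400 CPM, so the classes overlapped widely.

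*Oca2* (chr7:56239760-56536518, mm10), a melanosomal transport gene that the study used to mark the most differentiated McSCs, stood at 12.1 CPM in Mcm-high and 37.5 CPM in Mcm-low cells, a log2 ratio of -1.64 (-2.34 to -1.01). At 10000 UMIs it was found in 13 of 174 Mcm-high cells (7.47%, 4.04 to 12.4), 5.33% of Top2a-high, 6.16% of intermediate and 14.8% of Mcm-low cells (13 to 16.8). With all UMIs the shares were 10.3% in Mcm-high and 21.2% in Mcm-low cells, although Mcm-high cells were deeper. The background share was 0 of 88 keratin-rich barcodes at 10000 UMIs (up to 4.11%) and 1.14% with all UMIs, at a median depth of 39840 UMIs. The count of cells is small, and a repeat of the thinning gave 3.45%.

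**Figure D5:**
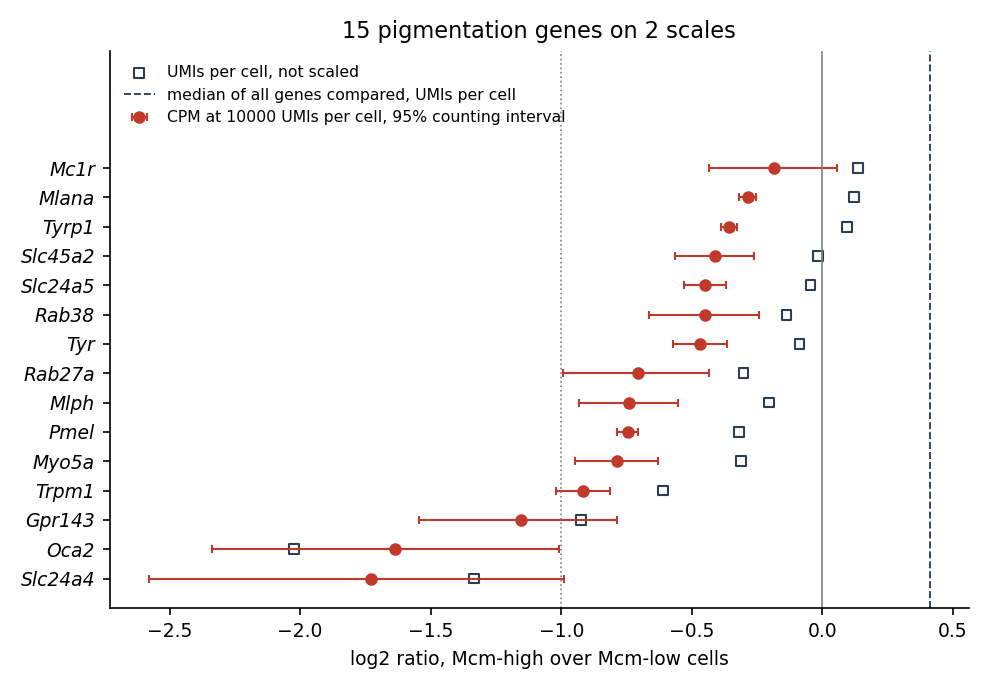
Log2 ratio of Mcm-high over Mcm-low cells (horizontal axis) for 15 pigmentation genes (vertical axis), as CPM with 95% counting intervals (points) and as unscaled UMIs per cell (squares). On the CPM scale the points lie left of 0, with *Oca2* at -1.64, and on the unscaled scale they lie around a median of -0.20 beside the dashed line of all genes at 0.41.

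Melanocyte markers were present in Mcm-high cells. All 7 on the list reached the mean, 0 passed 2-fold, and their sum was 14470 CPM in Mcm-high and 19500 CPM in Mcm-low cells. *Mitf* and *Sox10*, the lineage transcription factor genes, stood at 359.2 against 498.9 CPM and 92.0 against 145.4 CPM, and *Kit*, the receptor gene for stem cell factor, at 463.8 against 507.2 CPM. *Ednrb*, the endothelin receptor gene, stood at 563.8 against 842.2 CPM. Of 12 lineage factors and receptors, 0 passed 2-fold, with a median log2 ratio of -0.37 on CPM and 0.17 on unscaled UMIs, beside -0.04 and 0.41 for all genes. Of 6 genes that the study followed as stem-cell-enriched, picked there on data that include these libraries and so no independent evidence of direction, 1 (*Hspa1a*, a heat shock gene) was at least 2-fold lower, *Txnip*, a growth-restraining gene, stood at 145.4 against 234.7 CPM, and *Cd9* at 625.3 against 753.8 CPM. On unscaled UMIs per cell the log2 ratios of *Kit* and *Cd9* were 0.44 and 0.21, above 0, beside 0.41 for all genes.

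Ribosome biogenesis genes stood higher by less than replication genes. Of 17 that reached the mean of 18 listed, 4 were at least 2-fold higher and 0 lower, beside 4.11% and 2.24% of all genes compared. The median log2 ratio of these 17 genes was 0.72. Of their intervals, 15 lay above 0, beside 1611 of all 7418 genes. The median was 0.395 over intermediate cells with under 5 *Top2a* UMIs, and 1.17 on unscaled UMIs per cell beside 0.41 for all genes. *Dkc1*, a pseudouridine synthase gene, stood at 124.7 against 49.8 CPM, and *Ncl*, the nucleolin gene, at 929.9 against 535.3 CPM. Cytosolic ribosomal protein genes, 77 of 80, had 0 past 2-fold and a sum of 250000 against 241500 CPM, and 13 glycolysis genes had a median of 0.21. That glycolysis median was 0.07 in cells of 20000 to 40000 UMIs in both classes, and 0.655 on unscaled UMIs per cell. The median was -0.46 for 19 immediate early and stress genes, -0.26 for 11 interferon and MHC class I genes, -0.26 for 7 WNT feedback genes and -0.40 for 8 survival and death genes, each with at most 1 gene past 2-fold. On unscaled UMIs per cell these lay at 0.07, 0.32, 0.38 and 0.21, below the 0.41 of all genes. The stress median was -0.16 in cells of at least 20000 UMIs and -0.27 over intermediate cells with under 5 *Top2a* UMIs. Unscaled UMIs apart, the interferon median also lay above 0 in cells of at least 20000 UMIs (0.08), in cells of 20000 to 40000 UMIs (0.14) and over intermediate cells with under 5 *Top2a* UMIs (0.06), and the WNT median in cells of at least 20000 UMIs (0.16), over those intermediate cells (0.14) and with under 10% mitochondrial UMIs allowed (0.09), so neither list kept a direction.

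Outside the G2/M genes, the largest decreases were a mixed group. *Mxd4* (chr5:34173883-34187720, mm10), whose product competes with MYC for MAX, stood at 70.1 CPM in Mcm-high and 183.5 CPM in Mcm-low cells, a log2 ratio of -1.39 (-1.66 to -1.13). It was found in 42.5% of Mcm-high and 78.0% of Mcm-low cells at 10000 UMIs, and stood at 105.6 CPM in intermediate and 44.3 CPM in Top2a-high cells. *Ypel3* stood at 32.2 against 103.2 CPM and *Tcp11l2* at 50 against 150.9 CPM. *Pink1*, a kinase gene of mitochondrial quality control, stood at 20.1 against 53.8 CPM, and *Tnrc6b*, a gene of microRNA silencing, at 17.2 against 47.7 CPM. *Rnase1* and *Rnase4*, genes of secreted ribonucleases, stood at 11.5 against 45.9 CPM and 13.8 against 44.9 CPM.

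Markers of other cell types were low in these cells. The 11 keratinocyte markers summed to 53.5 CPM in Mcm-high and 115.0 CPM in Mcm-low cells, with 2 at 0 and *Lgals7* most abundant at 24.1 CPM. *Krt10* and *Krt14* are among the 11 and the filters capped them in both classes, so low sums are partly fixed by the selection. *Krtdap*, a gene of differentiating keratinocytes, stood at 2.87 against 34.4 CPM. After thinning it was found in 2.87% of Mcm-high and 2.08% of Mcm-low cells, so few Mcm-low cells held its 479 UMIs there. The share of cells with *Krtdap* was thus not lower in Mcm-high cells, and its level in those few cells is part of the Mcm-low sum. Fibroblast markers summed to 0.575 against 1.51 CPM with 5 of 6 at 0, endothelial markers to 0 against 0.144 CPM with 4 of 4 at 0, and immune markers to 19.5 against 24.8 CPM with 4 of 6 at 0 and *Cd74* most abundant at 19 CPM. Schwann cell markers summed to 185.6 against 254.1 CPM, with 3 of 5 at 0. A count of 0 allows up to 1.72 CPM in Mcm-high cells. Of the 11 keratinocyte markers, 3 reached the mean, 2 of them only through Mcm-low cells. Leaving out cells with any *Krt10* or *Krt14* UMI took the median log2 ratio of the keratinocyte markers that reached the mean from -0.69 to -3.07. *Krt10* is on that list and its own ratio was -0.69, so this move follows in part from the filter. With those cells left out, 353 genes were at least 2-fold higher and 207 lower, and the medians were 2.47 for DNA replication genes and -0.67 for pigmentation genes. For RNA of the other cell types no such values were computed. In all, 1 barcode was shared between both libraries.

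In the bulb library the same filters, with a minimum of 5000 UMIs, left 3734 of 4327 barcodes, at a median of 14286 UMIs. Of these, 58 (1.55%, 1.18 to 2) lay above the limit of 0.1092%, and 40 (1.07%, 0.766 to 1.46) also held fewer than 5 *Top2a* UMIs. After thinning to 5000 UMIs per cell in both libraries, 1.55% of the bulb cells and 14.3% (13 to 15.6) of the 2785 early-anagen cells exceeded the limit. The 9 genes stood at 520 CPM in the early-anagen cells that passed and 103 CPM in the bulb cells. Condition, chemistry, age and depth differed together between these libraries and cannot be told apart.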

How the data were processed

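Single-cell 3′ RNA libraries were read as deposited by the authors, as matrices of raw UMI counts per gene and barcode that they had made with Cell Ranger 6.0.1 on mm10, per the labels. The early-anagen matrix held 116800173 UMIs in 11010 barcodes with at least 500 UMIs each. Selected cells were thinned to 10000 UMIs without replacement, and counts were summed over each class and scaled to counts per 1000000 UMIs (CPM), giving 1740000 UMIs in Mcm-high and 13930000 in Mcm-low cells, so that 3 counts equal 1.72 and 0.215 CPM. With 1 library per condition no test was run. Ratios of summed counts carry exact 95% intervals from the binomial split of both counts, shares carry exact Clopper-Pearson intervals, and both cover counting error only. Genes with a mean of at least 10 CPM over both classes were compared, and a 2-fold difference was counted.

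Named genes were members of the gene lists and the 15 largest ratios in each direction at a mean of at least 25 CPM, leaving out selection genes, *Top2a*, *Dct*, *Krt10*, *Krt14*, mitochondrial, ribosomal protein and clone-named genes. *Fbxo5* and the other genes named against Top2a-high cells were chosen by their ratio there, after their values were seen, as was *Cxcl9*. The members and lists were chosen with earlier results of these data known. No doublet caller was run, and leaving out the 5% of cells with the most UMIs was an alternative. Values of some listed genes are not reported here. Symbols shared by several genes (40) were kept under their identifiers. In all, 26 alternatives were run, 24 planned and 2 chosen after seeing the data. Of these, 24 settings, both added ones among them, gave the values listed in the closing section. Scripts, tested on simulated data, used Python 3.11.15, numpy 2.4.6, scipy 1.17.1, pandas 2.3.3 and matplotlib 3.10.9, and R 4.3.3 with edgeR 4.0.16 for TMM factors.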

Additional observations from a re-analysis of the deposited data

How the results depend on the processing

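No paired analysis was possible because the study held 1 library per condition, and no replicate could be left out. Over 24 alternatives, 115 of 137 values of the main results stayed close to those reported, 19 moved and 3 changed sign. The count of genes at least 2-fold higher, 305, became 790 on unscaled UMIs per cell, 155 over the intermediate cells with under 5 *Top2a* UMIs, 77 with a minimum of 50 CPM and 1343 with no minimum. The count of lower genes, 166, became 35, 56, 15 and 825 in that order, and 261 at 5000 UMIs per cell, 260 for the top 10% and 106 with the *Top2a* limit applied first. The median log2 ratio of DNA replication genes, 2.31, became 2.82 unscaled, 2.79 without a *Top2a* limit and 1.27 over those intermediate cells with under 5 *Top2a* UMIs. That of pigmentation genes, -0.71, became -0.20 unscaled, -0.15 over the same intermediate cells and -0.82 in cells of 20000 to 40000 UMIs in both classes, an alternative added after seeing the data. The share of cells with *Oca2*, 7.47%, was 3.45% in a second thinning.

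The median of G2/M genes, -1.35, turned to 1.23 without a *Top2a* limit and to 2.67 over Mcm-low cells without *Mki67* or *Top2a*. The 2.67 was over genes that reached the mean against those cells, and the genes behind -1.35 had a median of 2.35 there. The G2/M median was 2.65 when Mcm-high cells with 10 or more histone UMIs were also left out, an alternative added after seeing the data, and -2.32 in cells of at least 20000 UMIs. In the 3 settings where the median turned, *Birc5* turned to 1.06, 2.37 and 2.20. Over the 1052 cells, without and with the histone limit, *Cenpf* turned to 0.30 and 0.18, *Ccnb2* to 0.48 and 0.50 and *Ccnb1* to 3.30 and 3.31. Without the histone limit the intervals of *Cenpf* (-0.78 to 1.25) and *Ccnb2* (-0.44 to 1.31) included 0, and that of *Ccnb1* (1.92 to 4.77) did not. *Mki67* turned to 1.59 without a *Top2a* limit. The turn over the 1052 cells follows from their construction, which leaves out cells with *Mki67* or *Top2a*. A minimum of 50 CPM gave no value for G2/M genes. Of 477 values of the other list medians, 413 stayed close and 64 moved, and 17 had the opposite sign. Unscaled UMIs gave 7 of those, which lay above 0 but below the 0.41 of all genes (lineage, stem-cell-enriched, WNT, stress, interferon, survival and melanocyte markers). The others were G1/S regulators with a minimum of 50 CPM (-0.27), histones without a *Top2a* limit (3.29) and with no minimum (0.03), ribosomal proteins over the intermediate cells with under 5 *Top2a* UMIs (-0.01), and the interferon and WNT values described with those lists. Of 2157 values of single genes, 1714 stayed close and 433 moved. In all, 57 of the 2157 had the opposite sign, 10 of them for genes that differed at least 2-fold.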
